A study of Mus musculus with 11 samples.

Results

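The microRNA cluster Mir290 to Mir295 was followed through RNA-seq of mouse embryonic stem cells (ESCs). Its members were taken by symbol: Mir290, Mir291a, Mir291b, Mir292, Mir293, Mir294 and Mir295 are 7 of the 23284 gene rows in every file. WT cells and cells without functional Tet1, Tet2 and Tet3 (Tet1,2,3 triple knock-out, TKO), the enzymes that oxidise 5-methylcytosine, were compared. Both were sampled without treatment (0 h) and after 4 h in α-amanitin at 10 µg/ml, an inhibitor of RNA polymerase II, with 2 libraries of ribosome-depleted total RNA in each of these 4 groups. A further group held 3 libraries of polyadenylated (polyA) RNA from WT cells. All cells were grown on gelatin with serum and leukaemia inhibitory factor. The TKO cells were an existing line, and whether it is 1 clone is not given in the sources used here. The study describes the α-amanitin RNA-seq as biological duplicates, and the labels do not say more on how replicates were grown. One library stood apart: along the second principal component of all tested features, replicate 1 of TKO at 4 h lay at -2.4, the other treated libraries at -12.1 to -15.1 and the untreated ones at 7.8 to 15.6.

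The cluster is the most abundant microRNA locus of mouse ESCs and is shut down as they differentiate. One long RNA, made by RNA polymerase II, carries all the hairpins. The nuclear enzyme Drosha with its partner Dgcr8 cuts the hairpins out of it, and Dicer1 trims each to a mature microRNA. The mature microRNAs repress mRNAs that pair with their seed, the bases near the 5′ end, and are known for speeding the passage from G1 to S phase. Libraries of this kind do not capture RNAs as short as a mature microRNA, so the values below measure the long primary transcript.

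In the NCBIM37 (mm9) annotation the 7 hairpins lie on the + strand of chromosome 7 within 2216 bp. Mir290, the 5′-most, occupies chr7:3218627-3218709, and Mir295, the 3′-most, chr7:3220774-3220842. Mir291a, Mir292 and Mir291b follow Mir290 at gaps of 210, 188 and 211 bp, and Mir293 stands 782 bp further on. Of the 7 genes, 6 had a hairpin sequence in the RefSeq table (GRCm38.p6), and all 6 were identical to the NCBIM37 sequence at these positions. The 3p strands are shown because their seed defines the family, and the 5p strand of Mir290 because only that gene had values. Sequences are from RefSeq, with bases 2 to 8, the seed, in capitals.
miR-290a-5p: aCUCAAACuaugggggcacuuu
miR-290a-3p: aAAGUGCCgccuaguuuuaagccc
miR-291a-3p: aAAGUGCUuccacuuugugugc
miR-291b-3p: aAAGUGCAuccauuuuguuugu
miR-293-3p: aGUGCCGCagaguuuguagugu
miR-294-3p: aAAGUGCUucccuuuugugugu
miR-295-3p: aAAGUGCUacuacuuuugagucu
Of these 6 3p strands, 5 held the letters AAGUGC in the seed, and miR-291a-3p, miR-294-3p and miR-295-3p had the same 7 seed bases. The table held no 3p strand of Mir292, so that strand is not shown or counted here. The seed of miR-293-3p did not contain those letters. Among the 7 5p strands in the table, miR-290a-5p, miR-292a-5p and miR-293-5p shared a seed.

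**Figure D1:**
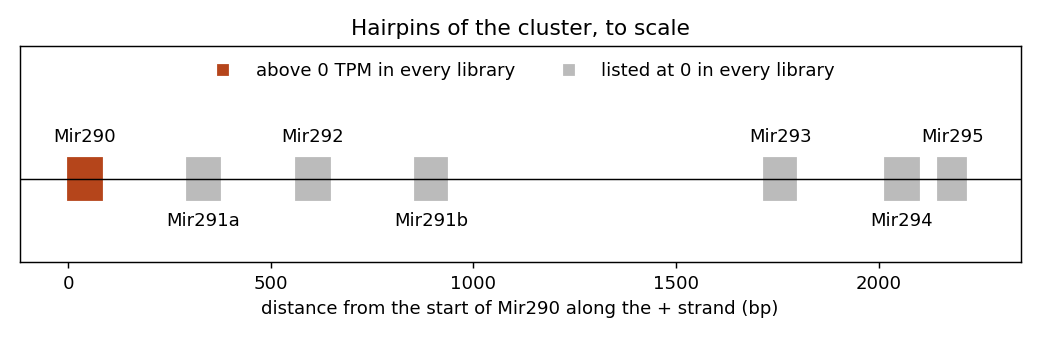
Position of the 7 hairpins, drawn to scale, with distance from the start of Mir290 in bp on the horizontal axis. Mir290, in red, was above 0 TPM in all 11 libraries, and the 6 hairpins in grey were listed at 0 in all 11.

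Only 1 of the 7 members had any signal. Mir291a, Mir291b, Mir292, Mir293, Mir294 and Mir295 were listed at exactly 0 in all 11 libraries, so the sum over the cluster equals Mir290 in every library. The values are TPM, a share of the library's transcripts corrected for gene length. In WT cells at 0 h, Mir290 stood at 216 and 223 TPM. After 4 h of α-amanitin it stood at 70.0 and 85.4 TPM. Both treated libraries lay far below both untreated ones. In TKO cells Mir290 stood at 259 and 250 TPM at 0 h and at 151 and 100.0 TPM at 4 h. The 2 treated TKO libraries differed more from each other than those of any other group, and neither reached the untreated range. In the WT polyA libraries Mir290 stood at 23.0, 17.9 and 18.1 TPM, below every ribodepleted library.

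For comparison between libraries the values were rescaled by size factors. The cluster sum was then 235 ± 7.4 scaled TPM in TKO at 0 h, 217 ± 10.6 in WT at 0 h, 124 ± 30.5 in TKO at 4 h and 85.7 ± 10.0 in WT at 4 h (mean ± SD, n = 2 each), and 19.1 ± 2.8 in WT polyA RNA (n = 3, rescaled with the WT 0 h libraries only). The TKO and WT sums at 0 h were neighbours in this order that did not differ in the test below. The sum rests on few reads: Mir290 is 83 bp long, and the whole reads recovered from the TPM steps were 251 to 267 in WT at 0 h, 87 to 103 in WT at 4 h, 274 to 322 in TKO at 0 h, 112 to 164 in TKO at 4 h, and 54 to 69 in polyA RNA.

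Reads were nevertheless counted along this stretch. D7Ertd143e, a long noncoding RNA gene that RefSeq places over the 6 hairpins listed at 0 and not over Mir290, had values in every library. It is not a member, and was chosen after the members' values were seen. The length that its TPM steps gave, 2232 bp, equals its whole RefSeq span, so it was counted as a single exon. D7Ertd143e stood at 277 and 265 TPM in WT at 0 h and at 101 and 111 TPM in WT at 4 h. In TKO cells it stood at 264 and 250 TPM at 0 h and at 169 and 124 TPM at 4 h. In polyA RNA it stood at 27.1, 25.7 and 26.5 TPM. The order of the groups was that of Mir290 except at 0 h, where the WT libraries were the higher ones. It was covered by 7376 to 8830 reads in the untreated ribodepleted libraries and by 2084 to 2447 in polyA RNA. At its reads per base, taken over the whole 2232 bp with the 6 hairpins included, each hairpin would have held 264 to 326 reads in WT at 0 h and 64.4 to 92.1 in polyA RNA.

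The same zeros occurred at other microRNA genes placed in this way. Of 622 microRNA features in the files, 611 were matched to RefSeq, and 11 of these lay wholly inside a gene counted as a single exon. All 11 were listed at 0 in every library, against 237 of the 600 others. Besides the 6 hairpins they were Mir92-1 inside Mir17hg, the host gene of the Mir17 cluster, Mir214 and Mir199a-2 inside Dnm3os, Mir5130 inside Kctd12 and Mir1843b inside Scarna3a. Mir17hg ranged from 29.8 to 116 TPM. Of the others, Dnm3os was at or below 0.031 TPM, Scarna3a at 0.23 to 2.35 TPM and Kctd12 at 1.05 to 2.65 TPM, levels at which a short feature may hold no read, so outside the cluster only Mir92-1 lay in a well-covered gene. HTSeq, the counter used, by default sets aside reads that fall on more than 1 gene. The setting used is not given in the sources used here, and its part in the zeros was not tested. Nlrp12, on the opposite strand 668 bp beyond Mir295, was at or below 0.14 TPM in every library.

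**Figure D2:**
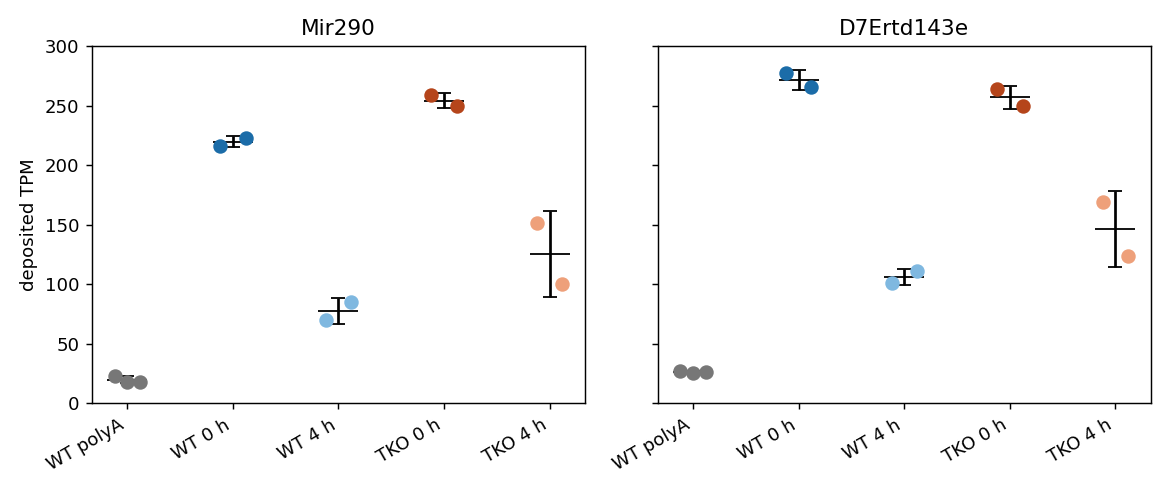
Deposited TPM of Mir290 (left) and D7Ertd143e (right) in each library (points) with the group mean and SD (black). For both rows the untreated ribodepleted libraries lie at 216 TPM or above, and the polyA libraries at 27.1 TPM or below.

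After 4 h of α-amanitin, the primary transcript fell in WT cells, relative to the other transcripts of the same libraries. Mir290 changed by -1.33 ± 0.14 on the log2(scaled TPM + 1) scale (difference ± SE), a fall of 2.52-fold, with an adjusted p of 0.0024 in limma. D7Ertd143e, which rests on more reads, changed by -1.19 ± 0.10 (adjusted p = 0.0012 in limma), a fall of 2.28-fold. Here a call means an adjusted p below 0.05 together with a difference beyond 1.5-fold, and 2.01% of all 12467 features tested were called lower and 0.0882% higher in this comparison. Mir290 was the only member tested, since the 6 others fell under the filter on low values. A total of 26 tested features had a more negative difference than Mir290, and 20 of them were other microRNA features. TPM shares hide any loss common to all transcripts, so these are changes against the rest of the transcriptome.

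In TKO cells the primary transcript also fell. Mir290 changed by -0.94 ± 0.14 (log2, difference ± SE), a fall of 1.92-fold, with an adjusted p of 0.0497 in limma, at the edge of the threshold. The adjusted p was 0.063 with the replicate number as a block, 0.12 without the variance trend and 0.18 without the filter on low values. D7Ertd143e changed by -0.72 ± 0.10, a fall of 1.65-fold (adjusted p = 0.045 in limma). In this comparison 0.16% of all tested features were called lower and 0.0% higher. The call of D7Ertd143e was lost under several alternatives too, with an adjusted p of up to 0.23. Without the treated TKO replicate 1, the library that stood apart, the fall of Mir290 was -1.19 on the log2 scale (adjusted p = 0.0020 in limma), and without replicate 2 it was -0.69 (adjusted p = 0.076 in limma).

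The difference between the changes in TKO and WT did not pass the test. The fall was smaller in TKO by 0.39 ± 0.20 for Mir290 (log2, 95% interval -0.07 to 0.85, adjusted p = 0.69 in limma) and by 0.47 ± 0.14 for D7Ertd143e (95% interval 0.15 to 0.78, adjusted p = 0.66 in limma). None of the 12467 features was called in this comparison (0.0%). The unadjusted limma p of D7Ertd143e was 0.0090. The differences turn on single libraries. Without the treated TKO replicate 1, which stood apart, they were 0.14 for Mir290 and 0.29 for D7Ertd143e (adjusted p = 0.84 and 0.72 in limma). Without replicate 2 they were 0.64 and 0.65 (adjusted p = 0.15 and 0.044 in limma), and without the treated WT replicate 1 that of Mir290 was 0.26.

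**Figure D3:**
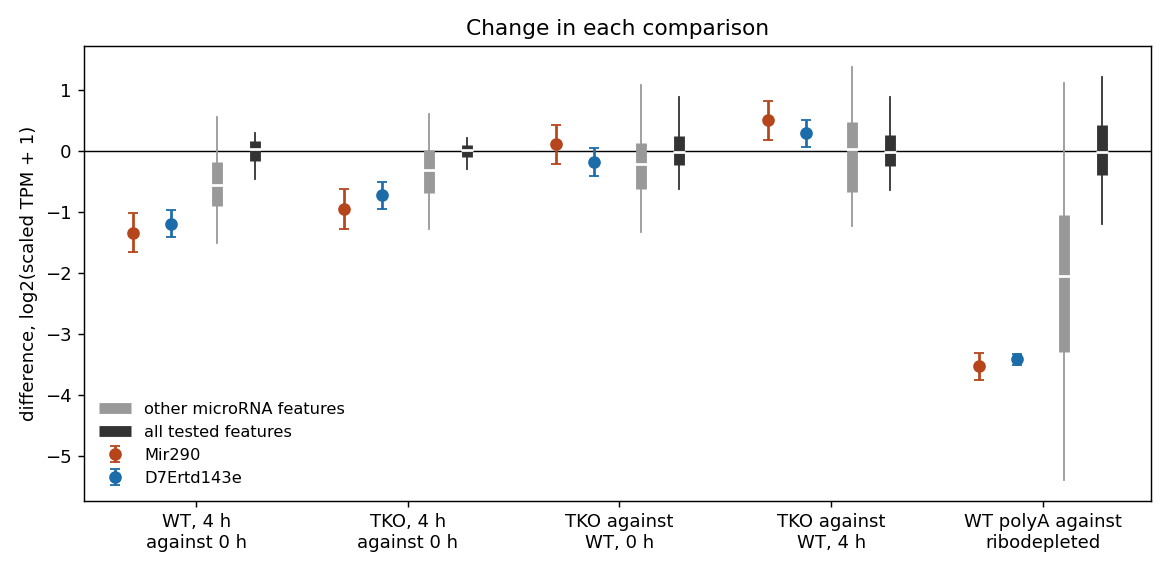
Differences on the log2(scaled TPM + 1) scale in 5 comparisons for Mir290 and D7Ertd143e (points, 95% intervals), beside the other microRNA features and all tested features (thick bars, middle 50%; thin lines, 5th to 95th percentile; white marks, medians). Both rows lie below the middle 50% of the other microRNA features after α-amanitin (Mir290 at -1.33 in WT cells and -0.94 in TKO cells), and at -3.53 and -3.41 in polyA RNA.

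The difference in untreated level between TKO and WT cells did not pass the test for either row. TKO and WT at 0 h differed by 0.11 ± 0.14 for Mir290 (log2, 95% interval -0.21 to 0.44, adjusted p = 0.52 in limma) and by -0.17 ± 0.10 for D7Ertd143e (95% interval -0.40 to 0.05, adjusted p = 0.16 in limma). Without either treated TKO library, D7Ertd143e passed the adjusted p, by -0.18 and -0.17 (adjusted p = 0.011 and 0.012 in limma), short of the fold limit. Of all tested features 10.4% were called higher and 5.45% lower in TKO. At 4 h Mir290 was 1.42-fold higher in TKO than in WT (0.50 ± 0.14 on the log2 scale, adjusted p = 0.014 in limma), which passed the adjusted p but not the 1.5-fold limit. At any fold, 59.4% of tested features passed that adjusted p. D7Ertd143e was 1.22-fold higher (0.29 ± 0.10, adjusted p = 0.030 in limma), and its adjusted p stayed under the limit in 11 of 16 alternatives. Without the treated TKO replicate 1 the differences at 4 h were 0.26 for Mir290 and 0.12 for D7Ertd143e (adjusted p = 0.048 and 0.10 in limma). Without replicate 2 they were 0.76 and 0.47. Without the treated WT replicate 1 they were 0.38 and 0.24 (adjusted p = 0.11 and 0.16 in limma). In deposited TPM, without rescaling, the difference of Mir290 at 4 h was 0.66, past the fold limit.

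Mir290 and D7Ertd143e are adjoining stretches of the cluster, and their ratio within a library does not depend on scaling. The ratio of their TPM values was 0.98 and 1.00 in TKO at 0 h and 0.78 and 0.84 in WT at 0 h. At 4 h it was 0.89 and 0.81 in TKO and 0.69 and 0.77 in WT. It was 0.85, 0.70 and 0.68 in polyA RNA. TKO libraries lay above WT libraries at both times, and treated libraries below untreated ones in both genotypes, without overlap. TKO exceeded WT by 1.19-fold over both times, and treated libraries stood at 0.88 times the untreated ones over both genotypes. Each comparison had a p of 0.056 in a two-sided exact permutation test within time or within genotype (36 arrangements, n = 8), which is the smallest this design allows, and 0.056 after adjustment over both comparisons. These comparisons were chosen after the values were seen. Exact binomial 95% intervals for single libraries, which cover counting error only, were wide: 0.69 to 0.88 for replicate 1 of WT at 0 h and 0.87 to 1.10 for that of TKO. A read pair that touches an 83 bp feature in part can be counted for it whole, so a ratio of 1 does not mean equal coverage.

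**Figure D4:**
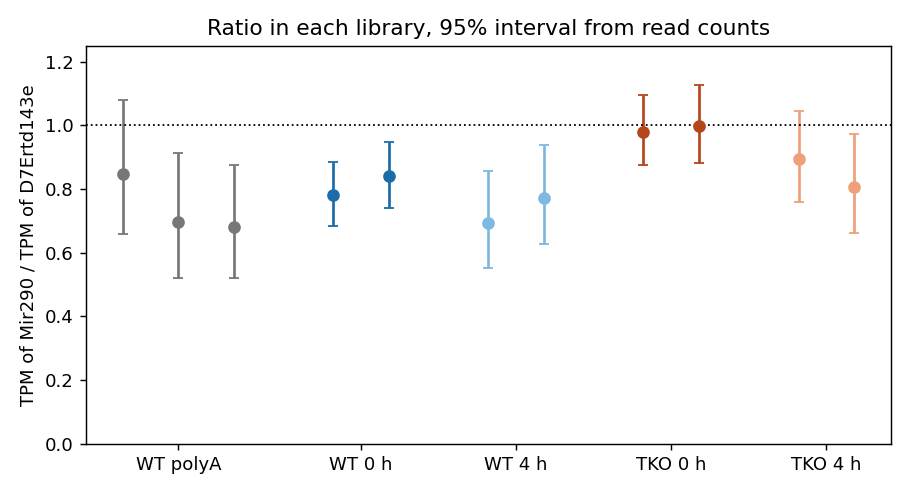
TPM of Mir290 divided by TPM of D7Ertd143e in each library, with exact binomial 95% intervals from the recovered reads; the dotted line marks 1. The untreated TKO libraries, at 0.98 and 1.00, are the highest of the 11, and the intervals of most libraries overlap.

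The primary transcript was far lower in polyA RNA than in ribosome-depleted RNA of WT cells. The difference was -3.53 ± 0.10 for Mir290 (log2, adjusted p = 1.1e-08 in limma), 11.5-fold, and -3.41 ± 0.04 for D7Ertd143e (adjusted p = 6.6e-11 in limma), 10.6-fold. Of 12481 features tested here, 16.4% were called lower in polyA RNA and 18.7% higher. Among the other microRNA features 156 of 196 tested were called lower, and their median difference was -2.05 against -0.01 over all tested features. The row of Mir17hg, the host RNA of the Mir17 cluster, went the other way, with 102 to 116 TPM in polyA RNA and 67.4 to 72.6 TPM in WT at 0 h (0.52 ± 0.05 on the log2 scale, adjusted p = 1.2e-05 in limma). Mir17hg was added after its values were seen. Of that cluster's hairpins only Mir92-1 lay inside this row. Hairpins outside it were lower in polyA RNA: Mir18 at 0.25 to 0.86 TPM against 54.8 to 65.5 in WT at 0 h, and Mir19a at 0 against 65.4 to 77.7. The row therefore does not stand for the whole Mir17 primary transcript. RNA selection and sequencing depth changed together. Whether the polyA and ribodepleted libraries were grown and sequenced together is not given in the sources used here. The parts of these in the difference cannot be told apart.

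Within the microRNA features of each library, Mir290 ranked 3 or 4 by TPM in the ribodepleted libraries and between 12 and 16 in polyA RNA. After α-amanitin 74 of 229 other microRNA features tested were called lower in WT and 3 higher, with a median difference of -0.56 against 0.03 over all tested features. In TKO, 2 were called lower and none higher, with a median of -0.31 against 0.01. Between TKO and WT their median difference was -0.21 at 0 h and 0.04 at 4 h.

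Related microRNA genes of ESCs had lower values than Mir290 in ribodepleted RNA, at most 70.9 scaled TPM in a group mean (Mir19a). The list held the Mir302 cluster, most of whose mature microRNAs share the AAGUGC seed, and the 3 Mir17-type clusters, with 18 of 20 features tested. Of these, 6 were called lower at 4 h in WT and none in TKO, beside 74 and 2 of the 229 other microRNA features, which include them, and 2.01% and 0.16% of all tested features. Mir19a fell from 75 to 92 reads to 37 to 39 reads in WT, and Mir18b from 60 to 61 reads to 27 to 30 reads. Mir18 changed by -0.87 ± 0.23 (log2, adjusted p = 0.020 in limma). Mir302c and Mir92-2 were also called lower, on 1 to 2 reads and 6 to 8 reads at 0 h. Between TKO and WT at 0 h, where 14 of the 229 were called higher and 38 lower, Mir302a, Mir302b and Mir367 were called higher. Mir302a had 5 to 9 reads in TKO against only 0 to 2 in WT. Mir302b had 2 to 7 against 0 to 1, and Mir367 2 to 4 against 0. In the ribodepleted WT groups Mir302b averaged at most 0.51 scaled TPM and Mir367 stood at 0. Both passed the filter on low values only through TKO, so their calls at either time could only be upward. At 4 h, where 31 of the 229 were called in each direction, Mir302b, Mir92-2 and Mir106a were called higher in TKO, the last on 1 to 5 reads against 0 to 1, and Mir17 was called lower (6 to 7 reads against 11 to 14). In polyA RNA 11 of 13 tested were called lower, beside 156 of 196 other microRNA features, and Mir363 was called higher, at 190 to 224 reads. Mir19a had no read in any polyA library.

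Among mRNAs described as targets of the cluster, 3 of 10 tested were called higher in TKO at 0 h and none lower, with the same counts at 4 h, where 11.0% of all features tested were called higher and 5.83% lower. Cdkn1a, which encodes the p21 inhibitor of cyclin-dependent kinases, was higher by 1.12 ± 0.09 at 0 h (log2, adjusted p = 1.3e-05 in limma) and by 1.38 ± 0.09 at 4 h. Tgfbr2, a TGF-β receptor, was higher by 1.27 ± 0.10 and 0.81 ± 0.10, and Lats2, a Hippo pathway kinase, by 0.84 ± 0.10 and 0.75 ± 0.10. Tgfbr2 was below 1 scaled TPM in both ribodepleted WT groups, at 0.60 (0 h) and 0.74 (4 h). It passed the filter on low values, a mean scaled TPM above 1, only through TKO, so its calls could only be upward. At 0 h Cdkn1a stood at 12.0 scaled TPM in TKO and 4.9 in WT, Tgfbr2 at 2.9 and 0.6, and Lats2 at 4.2 and 1.9. The WT sets differed as well: Cdkn1a stood at 69.3 to 70.2 TPM in WT polyA RNA against 4.89 to 5.12 in WT at 0 h. For Tgfbr2 these were 0.77 to 0.84 against 0.60 to 0.62, and for Lats2 0.63 to 0.81 against 1.85 to 1.96. The most abundant members of the list differed little at 0 h: Ei24 by -0.07 ± 0.05, Fbxl5 by 0.10 ± 0.06 and Rhoc by -0.19 ± 0.08, none past the adjusted p. The median over the 10 was 0.07, against -0.02 over all tested features. Some markers of cell state moved with genotype too. At 0 h the keratin Krt8 stood at 483 scaled TPM in TKO and 82.2 in WT. The ESC marker Zfp42 stood at 115 and 490. Of the 6 ESC markers, 4 were lower in TKO at 0 h. Nanog, at 42.7 against 38.1, and Dppa5a, at 1841 against 1586, were higher. Zfp42 was also low in WT polyA RNA, at 165 to 175 TPM, against 478 to 513 in WT and 123 to 126 in TKO at 0 h. The part of these markers in the differences of the targets was not tested. After α-amanitin none of the 10 was called in either genotype, where 2.01% of all tested features were called lower in WT and 0.16% in TKO.

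None of the 15 tested factors that process or carry microRNAs was called in TKO against WT at 0 h. Of all tested features 10.4% were called higher and 5.45% lower. Among the 15, 5 passed the adjusted p downward and 1 upward at any fold, and 13 had a difference below 0. Lin28a, which blocks maturation of let-7, was lower by 0.51 ± 0.05 at 0 h (log2 difference -0.51, adjusted p = 7.5e-05 in limma), short of the fold limit, and was called at 4 h with -0.61 ± 0.05. The WT sets differed for Lin28a too: it stood at 211 to 219 TPM in WT polyA RNA. At 0 h it stood at 407 to 414 TPM in WT and 306 to 312 in TKO. Ran, the GTPase of nuclear export, differed by -0.24 ± 0.07 and the helicase Ddx5 by -0.04 ± 0.05 at 0 h. The cutting enzymes, named for their role and not for their values, were Drosha at 95.9 scaled TPM in TKO and 104 in WT at 0 h, Dgcr8 at 69.8 and 72.5, and Dicer1 at 46.0 and 52.3. None of the 15 was called after α-amanitin in either genotype, where 2.01% of all tested features were called lower in WT and 0.16% in TKO.

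**Figure D5:**
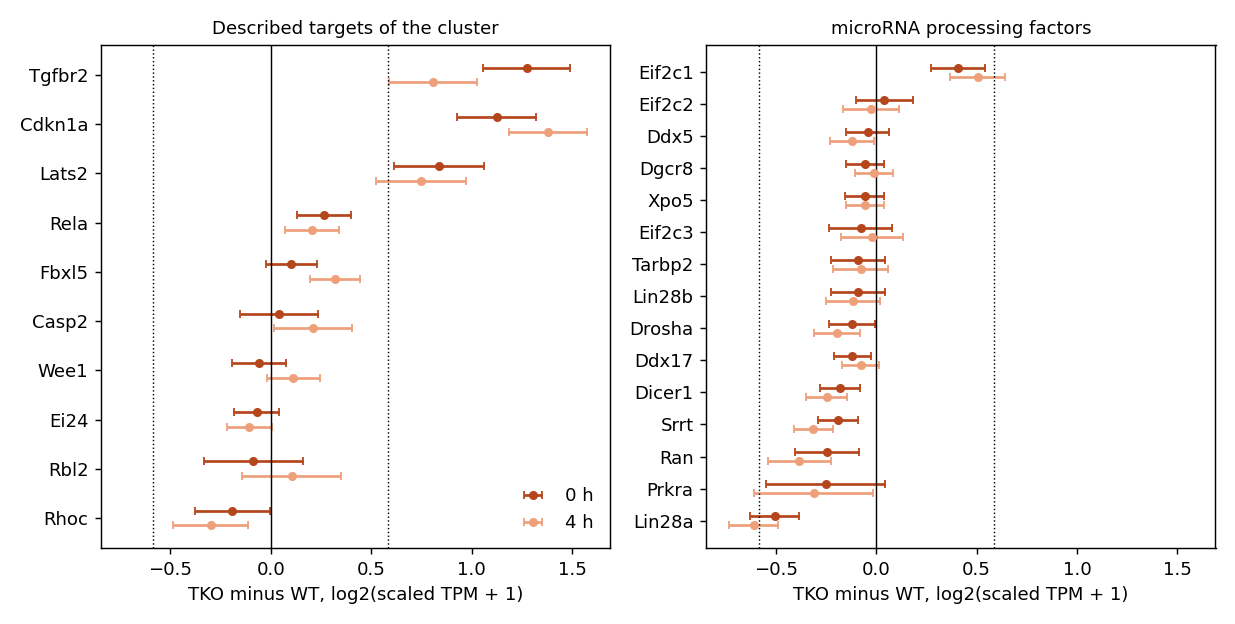
TKO minus WT at 0 h (dark) and 4 h (light), on the log2(scaled TPM + 1) scale with 95% intervals, for 10 described targets of the cluster (left) and 15 microRNA processing factors (right); dotted lines mark 1.5-fold. Tgfbr2, Cdkn1a and Lats2 have points beyond the line at both times, and Lin28a lies at -0.51 and -0.61.

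Of the 3 nearest annotated genes on each side of the cluster, 4 were in the files and 3 were tested. AU018091, 49422 bp to the left on the opposite strand, was higher in TKO by 0.63 ± 0.06 at 0 h (log2, adjusted p = 3.8e-05 in limma) and by 0.62 ± 0.06 at 4 h. It differed between 4 h and 0 h by 0.19 ± 0.06 in WT. Myadm, to the right, was higher in TKO by 0.27 ± 0.07 at 0 h, under the fold limit, and Prkcc differed by 0.07 ± 0.11. All 3 were called higher in polyA RNA, opposite in direction to Mir290. Over the 8 ribodepleted libraries, the genes whose log2 values correlated most closely with the cluster sum were Zfp748, Rbm5, Gtf3c4, Plekhf2 and Ftsjd1, with Pearson r from 0.991 to 0.996 among 8107 genes compared. D7Ertd143e ranked 49th with r = 0.98. These libraries fall into treated and untreated pairs, and the points share that contrast.

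The 6 ESC markers summed to 3497 to 3854 TPM in the ribodepleted libraries, fibroblast markers to 8.6 to 13.9 and primitive endoderm markers to 3.4 to 4.8. Of the 6 ESC markers, 2 were called lower in TKO at both times: Zfp42 by -2.08 ± 0.07 and Esrrb by -0.74 ± 0.04 at 0 h (log2, adjusted p = 1.8e-07 and 2.6e-06 in limma). Of all tested features 5.45% were called lower and 10.4% higher at 0 h, and 5.83% and 11.0% at 4 h. Nanog and Dppa5a were higher in TKO at 0 h, neither called. The fibroblast marker Col1a2 was called higher at both times, at 4.71 scaled TPM against 1.53 at 0 h. Gata4, of primitive endoderm, was called lower at 0 h, at 0.93 against 1.95. It passed the filter on low values only through WT, so that call could only be downward. The 5 trophectoderm markers summed to 77.2 to 95.9 TPM in WT and 524 to 593 in TKO, most of it Krt8. Of the 5, 3 were tested: Krt8, Hand1 and Eomes. Eomes differed between TKO and WT by 0.20 at 0 h and 0.42 at 4 h (log2) and was not called. Krt8 was called higher in TKO. Hand1 was also called higher in TKO, at 2.96 scaled TPM against 0.27 in WT at 0 h. It passed the filter on low values only through TKO, so its call could only be upward. Cdx2 was at or below 1.1 scaled TPM and Elf5 at or below 0.2 in every group mean. Tet1 stood at 21.7 to 30.2 scaled TPM in TKO against at least 118 in WT, and Tet2 at 6.0 to 7.7 against 44.5 to 55.5, while Tet3 was at 1.2 to 1.5 in both, so its transcript level does not show the knockout. Recovered reads ranged from 25511994 to 29786117 in ribodepleted libraries and from 72653715 to 82144991 in polyA libraries.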

How the data were processed

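The deposited files give 1 value per gene in TPM for each of 11 libraries, made by the authors from counts by HTSeq. Their methods name AfterQC for quality filtering, Bowtie2 for taking out ribosomal and transfer RNA, Trimmomatic for adapters, and STAR for alignment to mm9 (RefSeq annotation). Versions, strand setting and counting mode are not given in the sources used here. Labels gave the groups and replicate numbers. Whole reads were recovered from the TPM steps for 100% of genes above 0, with gene lengths fitted to the same steps except for microRNA features. Reads of a gene whose counts share a divisor would be understated. At RefSeq lengths, 96.96% to 98.75% of microRNA features above 0 gave whole reads in a library. Replicate pairs differed by more than sampling noise (chi-square per degree of freedom at least 1.56).

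Size factors by the median-of-ratios method rescaled the TPM of all 8 ribodepleted libraries. The fit used limma 3.58.1 (R 4.3.3; lmFit, then eBayes with trend) on log2(scaled TPM + 1), for genes with mean scaled TPM above 1. The scale understates changes of low genes. WT polyA and WT 0 h libraries were fitted separately. The test is two-sided with Benjamini-Hochberg adjustment over all tested features. A call needed an adjusted p under 0.05 and a 1.5-fold change. The fit was tested on simulated data. Python 3 with scipy gave the exact tests.

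The members, gene lists and tests were chosen with earlier results of these data known. Named genes were the 7 members, up to 5 called genes and the 3 most abundant of each list, the 3 nearest genes on each side and the 5 most correlated genes. Drosha, Dgcr8 and Dicer1 were named outside this rule, for their role, and some markers of cell type were also named outside it. The alternatives were deposited TPM, quantile normalisation, other pseudocounts (0.1 and 5), no filter, no trend, adjusted p alone, a replicate block, voom on recovered reads and leaving out each library. D7Ertd143e, Mir17hg and the ratio were added after values were seen.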

Additional observations from a re-analysis of the deposited data

How the results depend on the processing

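With only Mir290 tested, each comparison could call at most 1 member. The call of its fall at 4 h in WT and in polyA RNA held under every alternative, and no alternative called it in TKO against WT at 0 h or in the difference between genotypes. In TKO at 4 h against 0 h the count of members called went from 1 to 0 with a pseudocount of 0.1, without the filter, without the trend and with the replicate block (adjusted p from 0.055 to 0.18 in limma), and ranged from 0 to 1 when each library was left out, being 1 only without TKO 4 h replicate 1; the lone library left in a group was assumed to vary like the other groups. With voom on recovered reads the adjusted p was 0.0010. In TKO against WT at 4 h the count went from 0 to 1 with deposited TPM, quantile normalisation and adjusted p alone, and from 0 to 1 over the libraries left out, being 1 without TKO 4 h replicate 2 (log2 difference 0.76) or WT 4 h replicate 2 (0.62). Without TKO 4 h replicate 1 the difference was 0.26 and without WT 4 h replicate 1 it was 0.38 (adjusted p = 0.11 in limma); the cause was not tested. The replicate block moved no other call. The deviations of same-numbered libraries correlated at -0.04 to 0.12, and the labels do not say whether same-numbered libraries were grown together. The cluster sum in TKO at 0 h was 254 in deposited TPM, and in RPM of recovered reads, another unit, it was 10.6 in TKO and 9.47 in WT at 0 h, 5.39 and 3.46 at 4 h, and 0.81 in polyA RNA. The few reads of Mir290 limit what its row can show.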
